A study of Mus musculus with 4 samples.

Results

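Trim28, Setdb1, Cbx1, Cbx3 and Cbx5 are 5 genes whose products build and read heterochromatin and keep retroelements silent. They were chosen by name, as the rows of the deposited read table that carry one of these 5 symbols and a tail length above 0, and all 5 were found in each of the 4 libraries. Together they held 1790 of the 1903919 reads used and were 5 of 13831 gene symbols. The study measured poly(A) tails by direct RNA nanopore sequencing, in which each native RNA molecule gives 1 read that includes its tail, in J1 mouse embryonic stem cells (J1 is given as the strain background). The cells were grown in medium with fetal calf serum and LIF, with no treatment, and were either wild type (WT) or carried a knockout of Mov10 (KO), an RNA helicase. The 2 libraries of each genotype are named WT 1 and WT 2, or KO 1 and KO 2, and the labels do not say whether these came from separate cultures or whether the KO line is 1 clone, so the spread between libraries may be technical.

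Trim28, also called KAP1, is a corepressor that KRAB zinc finger proteins bring to retroelements. It recruits Setdb1, a methyltransferase that places methyl groups on lysine 9 of histone H3, and the heterochromatin protein 1 (HP1) family binds that mark through a chromodomain. Cbx5, Cbx1 and Cbx3 encode the HP1 proteins alpha, beta and gamma. In embryonic stem cells this pathway is known for silencing endogenous retroviruses.

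The libraries held from 351133 to 683239 reads with a tail length, and their median tails over all reads lay between 97.3 and 105.8 nucleotides (nt). Mov10 itself (ENSMUSG00000002227.15) had 26 and 14 reads in WT 1 and WT 2, against 0 in KO 1 and 1 in KO 2. All 10 markers of embryonic stem cells on the list had reads in each library, summing to between 7330 and 9794 reads per 1000000 reads (RPM). The sum was lower in both KO libraries than in both WT libraries, and Dppa5a gave the most of these reads in each library. In RPM, Pou5f1, Zfp42, Tdgf1 and Klf4 had the order of the sum, while the genotypes overlapped for Dppa5a, Nanog, Sox2, Esrrb, Utf1 and Tfcp2l1. Of single genes tested for read number, 20.5% had both KO libraries below both WT libraries. That share was taken after the median-of-ratios scaling described below, which the marker values in RPM did not have. The part of the lower marker sum in the read numbers of the 5 genes was not tested. Of 8 markers of fibroblast feeder cells, 2 had reads, in sum at most 17.6 RPM, and Col1a1, Col1a2 and Col3a1 had none. Of 8 primitive endoderm markers, 5 had reads, in sum from 20.9 to 39.9 RPM, with none for Sox17, Dab2 and Pdgfra. Of 8 markers of 2-cell-like cells, 6 had reads, in sum 39.9 RPM in WT 2 and at most 6.83 RPM elsewhere. Of the 14 such reads in WT 2, 10 were from Gm4340, named after its values were seen, and no other marker had more than 1. In bulk RNA, fewer cells of a type and less RNA per cell cannot be told apart.

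The first question was how long the tails of these 5 messages are. Their median tails lay above the middle for these cells, in some cases by little. The median of each gene lay above the median over all reads of the same library in 20 of 20 cases, by 4.34 nt (Setdb1 in KO 2) to 72.9 nt (Setdb1 in WT 1). Among 1935 genes that reached 20 reads in every library, 31.7% were above that mark in all 4 libraries. The median of those genes' medians, from 102.0 to 110.0 nt, was itself above the median over all reads in each library. Against those genes, the 5 medians ranked between the 51.7th percentile (Setdb1 in KO 2) and the 99.8th (Setdb1 in WT 1). Both extremes were Setdb1 medians, on 8 and 14 reads. Setdb1 and Cbx5 did not reach the 20 reads asked of the reference genes, so their ranks are less certain.

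**Figure D1:**
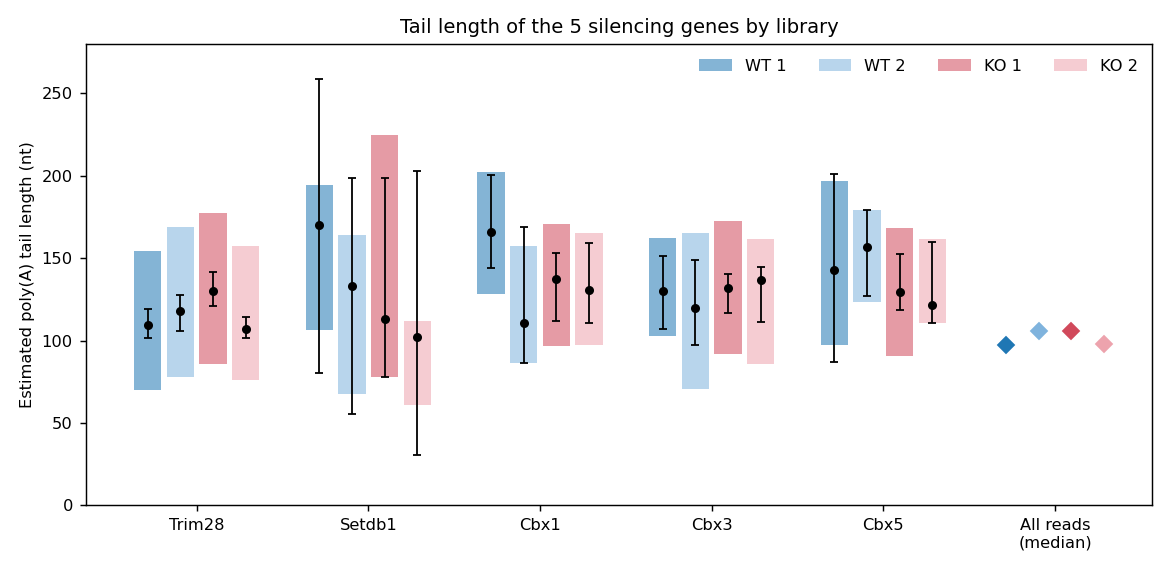
Estimated poly(A) tail length in nt for the 5 genes in each library: bars span the 25th to 75th percentile of the reads, points are medians and lines their 95% intervals over reads; diamonds are medians over all reads of the library. The member medians sit above the diamonds of the same library, and Setdb1, with 8 to 29 reads in a library, has the widest intervals.

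Trim28 (ENSMUSG00000005566.14), the corepressor, gave the most reads and so the most precise tails. Its median tail was 109.6 nt in WT 1, 118.0 nt in WT 2, 130.3 nt in KO 1 and 106.9 nt in KO 2, on 313, 248, 263 and 254 reads. The distribution-free 95% intervals of the medians over reads, which cover read sampling only, were 101.8 to 119.5 nt, 105.7 to 127.8 nt, 121.0 to 141.9 nt and 101.7 to 114.1 nt. KO 1 was the highest and KO 2 the lowest, so the KO libraries enclosed both WT libraries. WT averaged 113.8 nt ± 5.90 and KO 118.6 nt ± 16.6 (SD, n = 2 each). In limma's test of log2 median tail length over 1935 genes, Trim28 had a log2 change (KO minus WT) of 0.05 (standard error, SE, 0.13) and an adjusted p of 0.9998. The 95% interval of that change ran from -0.20 to 0.31, and without KO 1 the change was -0.09.

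Setdb1 (ENSMUSG00000015697.14), the methyltransferase, had only 14 reads per WT library, 29 in KO 1 and 8 in KO 2. Its median tails were 170.2 and 133.4 nt in WT and 113.1 and 102.4 nt in KO. Both WT medians were above both KO medians, but their intervals over reads were wide, from 80.6 to 258.9 nt in WT 1 and from 30.6 to 203.1 nt in KO 2. WT averaged 151.8 nt ± 26.0 and KO 107.8 nt ± 7.54 (SD, n = 2 each), a difference of -0.49 on the log2 scale. An exact two-sided permutation test gave p = 0.333, the smallest that 2 libraries against 2 allow, and Setdb1 had too few reads for the limma fit. Of 3866 genes with at least 8 reads in every library, 14.4% had both KO medians below both WT medians. At this depth no difference in Setdb1 tails could be shown.

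The 3 HP1 genes gave between 142 and 357 reads each over the 4 libraries. Cbx5 (ENSMUSG00000009575.14, HP1 alpha) had median tails of 142.9 nt in WT 1, 157.0 nt in WT 2, 129.7 nt in KO 1 and 121.6 nt in KO 2, on 19, 27, 76 and 20 reads. Both KO medians were below both WT medians, averaging 149.9 nt ± 9.95 in WT and 125.6 nt ± 5.73 (SD, n = 2 each) in KO. Because WT 1 held 19 reads, Cbx5 missed the minimum of 20. With a minimum of 10 reads, limma gave a log2 change of -0.25 (95% interval -0.67 to 0.16, adjusted p = 0.997 over 3344 genes, of which 0.0299% passed). Among those genes 14.3% had both KO medians below both WT medians, so this order of the libraries was common.

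Cbx1 (ENSMUSG00000018666.13, HP1 beta) had medians of 165.6 nt in WT 1 and 110.8 nt in WT 2, on 33 and 22 reads, and of 137.2 nt in KO 1 and 131.0 nt in KO 2, on 55 and 38 reads. The WT libraries lay on either side of the KO libraries and differed from each other by more than the genotypes did. WT averaged 138.2 nt ± 38.8 and KO 134.1 nt ± 4.41 (SD, n = 2 each). Limma gave a log2 change of -0.01 (SE 0.21, 95% interval -0.42 to 0.39, adjusted p = 0.9998). The change was 0.28 without WT 1, -0.30 without WT 2 and 0.02 without KO 2, so its direction rested on which library was left out.

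Cbx3 (ENSMUSG00000029836.15, HP1 gamma) had the most even tails of the 5 genes. Its medians were 130.4 nt in WT 1, 120.1 nt in WT 2, 132.1 nt in KO 1 and 136.6 nt in KO 2, on 43, 73, 169 and 72 reads. Both KO medians were above both WT medians by a narrow margin, an order found in 14.7% of the genes tested. WT averaged 125.2 nt ± 7.26 and KO 134.4 nt ± 3.19 (SD, n = 2 each). Limma gave a log2 change of 0.10 (SE 0.16, 95% interval -0.20 to 0.41, adjusted p = 0.9998), and without WT 2 it was 0.04.

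Thus 3 of the 5 genes had enough reads for the tail length test, and 0 of these 3 passed an adjusted p of 0.05, where 0% of all 1935 genes tested passed. At an unadjusted p under 0.05 there were 45 such genes, 2.33% of those tested, and none of the 3. Of all genes tested, 0.982% had such a p with shorter tails in KO and 1.34% with longer tails. The median log2 change over all genes tested was 0.01. The other two, Setdb1 and Cbx5, fell short of 20 reads in at least 1 library.

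Ordered by the mean of their 4 library medians, Trim28 was shortest at 116.2 nt ± 10.5 (SD, n = 4), followed by Setdb1 at 129.8 nt ± 29.8, Cbx3 at 129.8 nt ± 6.99, Cbx1 at 136.1 nt ± 22.7 and Cbx5 at 137.8 nt ± 15.5. The 10 pairs were compared within libraries on the log2 scale by exact sign-flip permutation tests, two-sided, in which 16 sign arrangements are possible and none gives a p under 0.05. Trim28 had shorter tails than Cbx3 in 4 of 4 libraries, by 0.02 to 0.35, a mean difference of -0.16 ± 0.17 (SD), the most extreme of the arrangements (Benjamini-Hochberg adjusted p = 0.972 over the 10 pairs, exact sign-flip permutation test). No other pair of medians had the same order in all 4 libraries. That order of Trim28 and Cbx3 was lost with the mean of log2 tail length and with the transcript with the most reads of each gene, whereas with the mean of log2 tail length Trim28 was below Cbx5, and Cbx1 above Cbx3, in all 4. Neighbours in the order did not differ beyond their spread: the mean log2 difference was -0.14 ± 0.37 (SD) for Trim28 minus Setdb1, -0.03 ± 0.36 for Setdb1 minus Cbx3, 0.06 ± 0.21 for Cbx1 minus Cbx3 and -0.03 ± 0.32 for Cbx1 minus Cbx5.

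The ends of the distributions were also read. Tails under 30 nt were rare: 16 of 1078 Trim28 reads, 6 of 357 Cbx3 reads, 1 of 148 Cbx1 reads, 1 of 142 Cbx5 reads and 0 of 65 Setdb1 reads. By the approximate rule of 3 divided by the number of reads, the last allows a share of up to 4.62%. Over all reads of a library this share ran from 1.55 to 3.02%. Of the 6 short Cbx3 tails, 5 were in WT 2, where they made up 6.85% of its Cbx3 reads (95% Wilson interval 2.96 to 15.1%).

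Long tails of 150 nt or more made up 18.8 to 24.0% of all reads in a library. How many of all genes exceed that share in each library was not counted. Long tails took a larger share of the reads of Trim28, Cbx1, Cbx3 and Cbx5 in each library, and of Setdb1 in all but KO 2. For Trim28 they took 28.4 and 35.5% of reads in WT 1 and WT 2 and 39.9 and 28.0% in KO 1 and KO 2, and for Cbx3 39.5%, 35.6%, 36.7% and 34.7% in the same order. Cbx3 was the steadiest of the 5 genes here too, with WT averaging 37.6% ± 2.77 and KO 35.7% ± 1.39 (SD, n = 2 each). Cbx1 ranged from 27.3% in WT 2 (Wilson interval 13.2 to 48.2%) to 63.6% in WT 1 (46.6 to 77.8%), with both KO libraries between them at 40.0 and 39.5%. Cbx5 had 42.1 and 59.3% in WT against 39.5% and 6 of 20 reads in KO, and Setdb1 had 64.3 and 50.0% in WT against 41.4 and 12.5% in KO, the last being 1 of 8 reads.

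For Cbx5 and Setdb1 the genotypes did not overlap in this share, with differences (KO minus WT) of -15.9 and -30.2 percentage points. Both reached p = 0.333 in the exact permutation test (two-sided, adjusted p = 0.833 over the 5 genes), which is as low as 2 libraries against 2 can go. Among 3866 genes with at least 8 reads in every library, 15% had both KO shares below both WT shares. For Setdb1 the difference turned to 5.76 percentage points with a limit of 200 nt, and it was -15.8 without KO 2. For Cbx5 it was -10.7 with a limit of 120 nt, where the genotypes overlapped, -5.71 with a limit of 200 nt, -7.37 without WT 2 and -24.5 without WT 1. Trim28, Cbx1 and Cbx3 had differences of 1.98, -5.72 and -1.87 percentage points, with exact permutation p-values of 1, 1 and 0.667.

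The second question was how many molecules of each message were read. Because a read is 1 molecule, levels are given as RPM of all reads in the library, with exact 95% binomial intervals that cover counting error only, and were not divided by transcript length. In each of the 4 libraries Trim28 had the most reads, Cbx3 the second most and Setdb1 the fewest. Cbx1 and Cbx5 exchanged places between libraries, with Cbx1 ahead in WT 1 and KO 2 and Cbx5 ahead in WT 2 and KO 1.

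**Figure D2:**
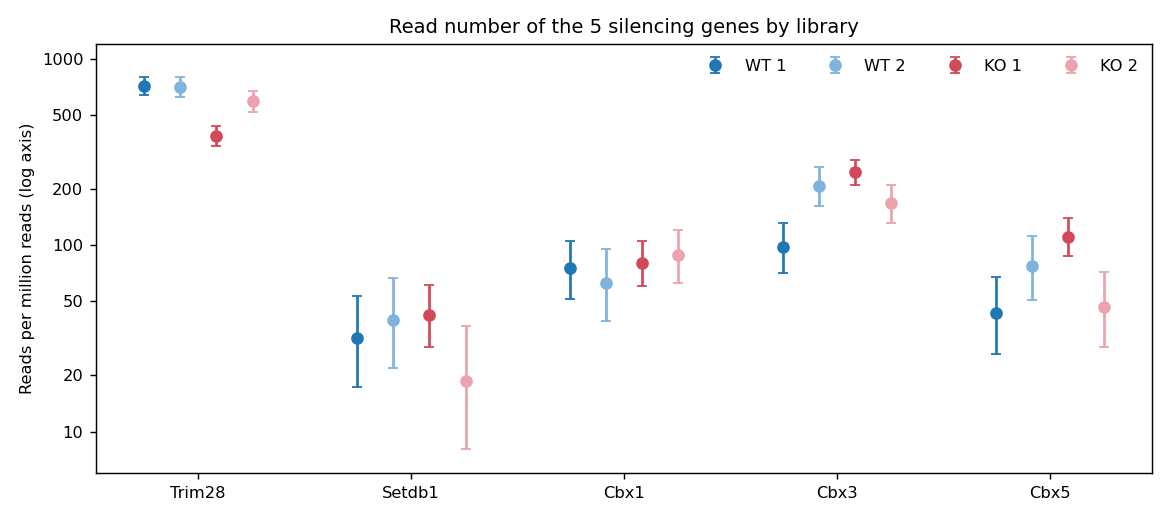
Reads per 1000000 reads (RPM) on a log axis for the 5 genes in each library, with exact 95% binomial intervals from counting error. Trim28 sits at 712 and 706 RPM in WT against 385 and 591 RPM in KO, while the genotypes overlap for Setdb1, Cbx3 and Cbx5.

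Trim28 had 712 RPM in WT 1 (635 to 796 RPM) and 706 RPM in WT 2 (621 to 800 RPM), against 385 RPM in KO 1 (340 to 434 RPM) and 591 RPM in KO 2 (520 to 668 RPM). Both KO libraries were below both WT libraries, and KO 1 lay well below KO 2. After median-of-ratios scaling WT averaged 739 RPM ± 70.7 and KO 468 RPM ± 131 (SD, n = 2 each), a ratio of 0.633. In limma's voom test over 4815 genes the log2 change was -0.70 (SE 0.26, 95% interval -1.23 to -0.16). The unadjusted p was 0.0136, the 192nd smallest, and the adjusted p was 0.341, so Trim28 did not pass the threshold of 0.05. Both KO libraries were below both WT libraries for 20.5% of all genes tested, and 5.17% had an unadjusted p under 0.05 with fewer reads in KO.

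Single libraries moved this result. Without WT 2 the log2 change of Trim28 was -0.80 with an adjusted p of 0.0149 (limma), below 0.05, in a fit that called 367 genes. That fit had 1 WT library, so its spread came from the KO pair alone and the lone WT library was assumed to vary like them. Without KO 1 it was -0.39 with an adjusted p of 0.975, and without KO 2 it was -0.97 with an adjusted p of 0.998. The direction was the same in each of the 11 alternatives, all of which reuse the same reads. With a library left out, that direction follows from both KO libraries lying below both WT libraries. The 10 tested genes on either side of Trim28 on chromosome 7, in the gene order of the RefSeq annotation of GRCm38.p6, had a median log2 change of -0.34, and 16 of these 20 had fewer reads in KO. The neighbours of Setdb1, Cbx1, Cbx3 and Cbx5 had medians of -0.15, -0.06, 0.05 and 0.05. How such medians spread over the genome is not given here. Over all genes tested the median was -0.01 and 49.4% were higher in KO. The part of the surrounding genes in the Trim28 difference was not tested.

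Setdb1 had 31.9 RPM in WT 1, 39.9 RPM in WT 2, 42.4 RPM in KO 1 and 18.6 RPM in KO 2. The KO libraries enclosed the WT libraries. The log2 change in limma's voom test was -0.35 (SE 0.46, 95% interval -1.32 to 0.62, adjusted p = 0.846), and it was 0.14 without KO 2 and -1.03 without KO 1.

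The HP1 genes had point estimates above 0, none of them past the threshold. Cbx3 had 97.8 RPM in WT 1, 208 RPM in WT 2, 247 RPM in KO 1 and 167 RPM in KO 2. WT 1 was the lowest by far, and WT 2 lay between the KO libraries. Its log2 change was 0.42 (SE 0.33, limma, adjusted p = 0.680), and without WT 1 it was -0.02.

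Cbx5 had 43.2 RPM in WT 1, 76.9 RPM in WT 2, 111 RPM in KO 1 and 46.5 RPM in KO 2. The genotypes overlapped, with KO 1 highest and KO 2 close to WT 1. The log2 change was 0.27 (SE 0.42, limma, adjusted p = 0.870), and it was -0.42 without KO 1 and -0.04 without WT 1.

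Cbx1 was the most even in read number, with 75.1 RPM in WT 1, 62.7 RPM in WT 2, 80.5 RPM in KO 1 and 88.4 RPM in KO 2. Both KO values were above both WT values as RPM of all reads but not after median-of-ratios scaling. The log2 change was 0.16 (SE 0.33, limma, adjusted p = 0.900), and it was -0.05 without WT 2. With scaling by total reads Cbx1 had 0.27, while the median gene then stood at 0.11.

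**Figure D3:**
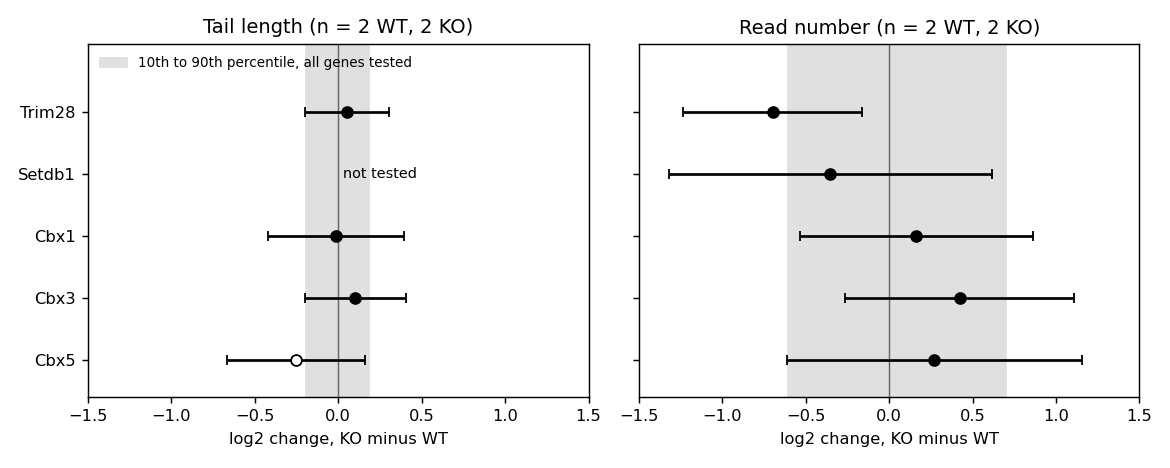
Change between genotypes (KO minus WT, log2) in tail length (left) and read number (right) with 95% intervals from limma, on 2 WT and 2 KO libraries; the grey band spans the 10th to 90th percentile of all genes tested, and the open circle marks Cbx5, tested with a minimum of 10 reads. The tail length intervals span 0, and in read number the interval of Trim28, from -1.23 to -0.16, is the one that does not.

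All 5 genes passed the filter for read number, and 0 of them passed an adjusted p of 0.05, where 0% of the 4815 genes tested passed. Mov10, the gene knocked out, missed the threshold too, with a log2 change of -5.09 (limma, adjusted p = 0.0553). A gene that did not pass is therefore not shown to be unchanged. At an unadjusted p under 0.05 the test gave 498 genes, 10.3%, among them Trim28.

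A comparison inside each library does not depend on scaling. For each read of the 3 HP1 genes together, WT 1 held 3.29 Trim28 reads (exact 95% interval 2.61 to 4.19) and WT 2 held 2.03 (1.63 to 2.55). The same ratio was 0.877 for KO 1 (0.740 to 1.04) and 1.95 for KO 2 (1.58 to 2.43). WT 1 was the highest and KO 1 the lowest, while WT 2 and KO 2 lay close together with overlapping intervals. Cbx3 supplied 45.3% of the HP1 reads in WT 1 and between 55.4 and 59.8% in the other libraries.

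Reads were then divided by the transcript they had been assigned to. Nearly all reads of Cbx1, 146 of 148, were on ENSMUST00000134585.7. Trim28 had 1025 of 1078 reads on ENSMUST00000005705.7 and 51 on ENSMUST00000123778.1. Its remaining reads, 1 each on ENSMUST00000082405.1 and ENSMUST00000127270.1, were on transcripts whose reads nearly all carry other symbols. Cbx5 reads were mostly on ENSMUST00000118152.7, with 77.8 to 84.2% of the reads in each library.

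**Figure D4:**
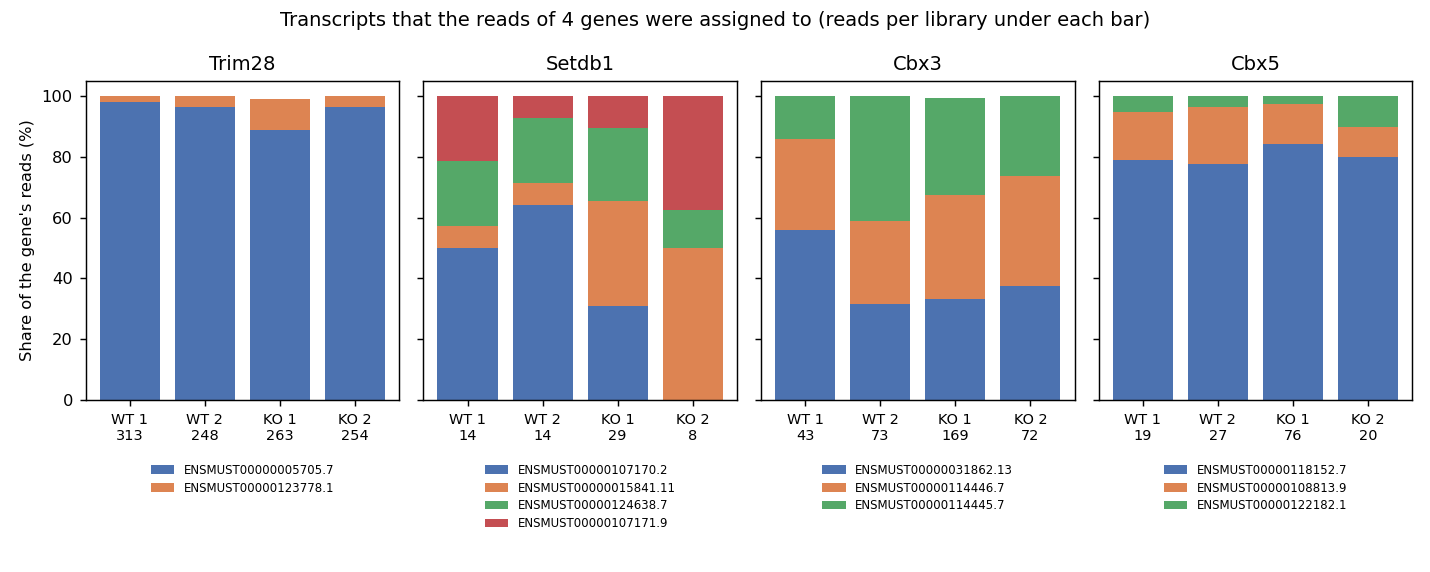
Share of each gene's reads (%) assigned to each transcript, per library, for Trim28, Setdb1, Cbx3 and Cbx5, leaving out transcripts with fewer than 5 reads in all; the number under each bar is the gene's reads in that library. ENSMUST00000015841.11 takes 34.5 and 50.0% of the Setdb1 reads in KO against 7.14% in each WT library.

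Setdb1 reads fell on 4 transcripts. ENSMUST00000015841.11 had 1 of 14 reads in either WT library, and 10 of 29 and 4 of 8 reads in KO 1 and KO 2. The KO shares of 34.5% (Wilson interval 19.9 to 52.7%) and 50.0% (21.5 to 78.5%) were both above the WT share of 7.14% (1.27 to 31.5%), and the intervals of WT and KO overlapped. In the exact permutation test (two-sided) this gave p = 0.333, again the lowest value that n = 2 permits. Over 7008 transcripts with at least 5 reads, of genes with 2 or more such transcripts and at least 8 reads in every library, 18.5% had both KO shares above both WT shares. ENSMUST00000107170.2 held 7 of 14 and 9 of 14 reads in WT, against 9 of 29 in KO 1 and 0 of 8 in KO 2 (Wilson interval up to 32.4%). These transcripts were singled out after their values were seen. The reads on ENSMUST00000015841.11 had median tails of 87.1 nt in KO 1 and 77.3 nt in KO 2, below the Setdb1 medians of those libraries, while its single reads in WT 1 and WT 2 had 186.9 and 153.2 nt.

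For Trim28 the transcript ENSMUST00000123778.1 held 10.3% of reads in KO 1 (Wilson interval 7.15 to 14.5%) and between 1.92 and 3.63% in the other libraries, so KO 1 stood apart from KO 2 and from WT. The exact two-sided permutation p was 0.667 (n = 2). Tails on the main transcript, with medians of 109.6, 118.8, 130.4 and 107.7 nt in WT 1, WT 2, KO 1 and KO 2, were within 1 nt of those over all Trim28 reads.

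Cbx3 reads were spread over ENSMUST00000031862.13, ENSMUST00000114446.7 and ENSMUST00000114445.7, with 130, 117 and 109 reads. WT 1 held 55.8% of its Cbx3 reads on the first, against shares of 31.5, 33.1 and 37.5% for WT 2, KO 1 and KO 2. The third was lowest in WT 1, at 14.0%, and highest in WT 2, at 41.1%, so the WT libraries bracketed KO. Median tails on ENSMUST00000114446.7 were 161.1 nt in WT 1, 153.7 nt in WT 2, 129.2 nt in KO 1 and 145.0 nt in KO 2, on 13 to 58 reads. Those on ENSMUST00000031862.13 were 137.3, 107.5, 140.1 and 127.0 nt in the same order. How reads were assigned among transcripts of 1 gene is not given in the sources used here, so such shares are uncertain. Cbx3 also has processed pseudogenes, which can share reads with it.

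Of the members' transcripts, 3 had at least 20 reads in each library. The log2 change in tail length was 0.05 for ENSMUST00000005705.7 of Trim28, 0.13 for ENSMUST00000031862.13 of Cbx3 and -0.01 for ENSMUST00000134585.7 of Cbx1. None of the 3 passed (limma, adjusted p = 0.999 for each), where 0% of the 1815 transcripts tested passed and 2.59% had an unadjusted p under 0.05.

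The deposited table also places genes in classes by Mov10 binding and m6A, a methylated adenosine in messenger RNA. Trim28 was in the class of Mov10 targets with m6A, Cbx1, Cbx3 and Cbx5 were in the class of Mov10 targets without m6A, and Setdb1 was a non-target. How the classes were made is not given in the sources used here.

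Other genes of the pathway were taken from 7 lists, and 4 read numbers given together are those of the libraries in the order used above, WT before KO. Of their 55 symbols 52 had reads, the other 3 being older symbols of listed genes, 12 could be tested for tail length and 33 for read number, and 0 passed in either test (limma, adjusted p over all genes), where 0% of all genes tested passed. For tail length 6 of the 12 were longer in KO, with a median log2 change of -0.03, against 0.01 over all genes. For read number 20 of the 33 were higher in KO, with a median of 0.05, against -0.01 over all genes. At an unadjusted p under 0.05, 0 of the 12 remained for tail length, where 2.33% of all genes tested did. For read number 3 of the 33 remained, all higher in KO. Of all genes tested for read number, 10.3% had such a p in either direction and 5.17% had it with more reads in KO.

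Among partners of Trim28 and Setdb1, 13 of 15 were tested for read number and their median log2 change was 0.05, from -0.50 to 1.10. Sumo2, a small ubiquitin-like modifier, had the most reads, with 305 and 214 in the WT and 740 and 529 in the KO libraries. Its log2 change was 0.71 (limma, unadjusted p = 0.00718, adjusted p = 0.277). Of the 20 nearest tested genes on chromosome 11, 19 were also higher in KO, with a median log2 change of 0.85, and their part in the Sumo2 difference was not tested. Atrx, a chromatin remodeler that works with the histone chaperone Daxx, was the other partner with an unadjusted p under 0.05. It had 5 and 15 reads in WT and 38 and 20 in KO. Its log2 change was 1.10 (limma, unadjusted p = 0.0485, adjusted p = 0.476).

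The HUSH complex silences retroelements together with Setdb1. Its subunit Mphosph8, which binds methylated lysine 9 of histone H3, had 19, 11, 29 and 9 reads and a log2 change of -0.35, and its associated ATPase Morc2a had 11, 19, 18 and 18 reads and a log2 change of -0.30 (limma, adjusted p = 0.842 and 0.867). The HUSH subunit Tasor, named after its values were seen, was too low for the test with 3, 5, 20 and 11 reads. After scaling Tasor had 7.56 and 13.9 RPM in WT and 28.5 and 24.3 RPM in KO, an order, with both KO libraries higher, that 20% of the genes tested for read number had. Pphln1, the remaining subunit on the list, had 1 read in all. The other methyltransferases of lysine 9 were too low for the test except Ehmt2, which had 15, 15, 22 and 21 reads and a log2 change of -0.11 (limma, adjusted p = 0.952), while Suv39h2 had 6, 10, 14 and 8 reads. Kmt5a and Kmt5c, which methylate lysine 20 of histone H4, had log2 changes of 1.06 and -0.55 (limma, adjusted p = 0.567 and 0.760).

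The ChAHP and NuRD complexes are remodelers, and ChAHP contains HP1 proteins. Of their 13 genes 11 were tested for read number, with a median log2 change of 0.02. Rbbp7 and Rbbp4, histone-binding subunits with the most reads of the list, had log2 changes of 0.03 and -0.31 in read number and of 0.13 and 0.07 in tail length. Chd4, the ATPase of both complexes, was the third gene with an unadjusted p under 0.05. It had 11 and 16 reads in WT and 64 and 32 in KO. Its log2 change was 1.19 (limma, unadjusted p = 0.00715, adjusted p = 0.277).

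The Polycomb chromobox genes share the chromodomain with HP1 but read another histone mark. Cbx7 had 21, 19, 46 and 25 reads and a log2 change of 0.19 (limma, adjusted p = 0.891), and Cbx2 had 2, 4, 8 and 3 reads, too few for the test. Among demethylases of lysine 9, Jmjd1c and Kdm3a had log2 changes of 0.13 and 0.09 (limma, adjusted p = 0.940 and 0.965).

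Finally, the genes whose tails varied over the 4 libraries most like each member were sought among genes with at least 50 reads in each library, by the root mean square difference of centred log2 medians. With 4 points this is a description only. Sqstm1 was nearest to Trim28 at 0.0201, Mrpl51 to Cbx3 at 0.0164, Cdk1 to Cbx5 at 0.0197, Psmc2 to Cbx1 at 0.0691 and Use1 to Setdb1 at 0.110, where the median distance over the candidates ran from 0.110 for Trim28 to 0.305 for Setdb1. Cdk1, for example, had medians of 134.2 and 142.3 nt in WT and 120.6 and 111.2 nt in KO.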

How the data were processed

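Per the file header, the authors' deposited table holds 1 row per direct RNA nanopore read and gives its library, its gene symbol and Ensembl transcript, and an estimated tail length in nt, with no normalization recorded. Per the labels' protocols, RNA was selected on oligo(dT) beads and prepared with a direct RNA kit and DeePlexiCon barcode adapters. The submitters' processing notes name minimap2 2.20; the basecaller, tail length tool and genome build are not given in the sources used here. Reads with a length of 0, 3 in all, were left out. Libraries were grouped by sample title.

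Reads were collapsed to 1 median per gene and library and tested on the log2 scale with limma 3.58.1 (R 4.3.3; eBayes with log2 mean reads as trend; at least 20 reads in each library). Reads counted here per gene were tested with limma's voom (0.5 reads added, median-of-ratios scaling, a mean of at least 10 reads), since the table has no column of counts. P-values were adjusted by Benjamini-Hochberg over all genes tested, with a threshold of 0.05. Medians have binomial order-statistic intervals. Tables were read with pandas 2.3.3 and intervals computed with scipy 1.17.1.

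The members and lists were chosen with earlier results of these data known. Named genes are the 5 members, Mov10, the 2 genes with the most reads in each list (1 of which is not reported here), list genes past the threshold, and the nearest gene by tail pattern; Atrx, Chd4, Tasor, Pphln1 and genes at 0 reads were named after their values were seen. Alternatives changed the summary, read minimum, weights, centring, scaling, model, transcript, the limit of a long tail and the pairing, or left out each library.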

Additional observations from a re-analysis of the deposited data

How the results depend on the processing

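Over the members, 28 of 31 alternative values for the tail length change, 48 of 53 for the read number change, 23 of 30 for the share of long tails and 48 of 56 for the difference between members kept their direction. For tail length, another read minimum or the replicate block leaves a gene's estimate as it is, so these settings could not turn it. Leaving a library out also could not turn a direction where the genotypes did not overlap. This held for Cbx3 in tail length, Trim28 in read number, and Setdb1 and Cbx5 in long tails. Nor could it turn Trim28 minus Cbx3, which had the same sign in all 4 libraries. The counts above include all these values. Every turn in tail length or read number came from leaving a library out. With a library left out, the tail length change (log2) ranged from -0.0896 to 0.196 for Trim28, from -0.305 to 0.275 for Cbx1 and from 0.0435 to 0.162 for Cbx3. The read number change ranged from -0.974 to -0.391 for Trim28, from -1.03 to 0.137 for Setdb1, from -0.0452 to 0.391 for Cbx1, from -0.0188 to 0.876 for Cbx3 and from -0.423 to 0.844 for Cbx5. Of these, only Trim28 without WT 2 had an adjusted p under 0.05 (0.0149, limma). In each such fit the genotype left with 1 library gives no spread of its own and is assumed to vary like the other.

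With a library left out, the difference in long tails ranged from -4.01 to 7.96 percentage points for Trim28, from -23.9 to 12.5 for Cbx1, from -3.83 to 0.0879 for Cbx3, from -44.6 to -15.8 for Setdb1 and from -24.5 to -7.37 for Cbx5. It turned to 5.76 for Setdb1 with a limit of 200 nt, and to 1.87 for Cbx1 and 3.73 for Cbx3 with a limit of 120 nt. Differences between members (log2) ranged from -0.250 to 0.0295 for Trim28 minus Setdb1, from -0.321 to -0.0922 for Trim28 minus Cbx1, from -0.198 to 0.00964 for Setdb1 minus Cbx1, from -0.163 to 0.104 for Setdb1 minus Cbx3, from -0.0410 to 0.113 for Cbx1 minus Cbx3, from -0.105 to 0.134 for Cbx1 minus Cbx5 and from -0.164 to 0.0209 for Cbx3 minus Cbx5. With the mean of log2 tail length, Cbx1 minus Cbx5 was 0.00320. The setting that kept each gene's most-read transcript gave no value for Setdb1, whose most-read transcript had 0 reads in KO 2.

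No gene passed for tail length; 1 did with a minimum of 10 reads, and 0 to 4 with a library left out (4 without WT 2), as did 0 to 2 transcripts. For read number the count was 0, and 7 with scaling by total reads, 96 without a filter, 10 with at least 20 reads in each library, 8 with sample quality weights and 0 to 367 with a library left out (50 without WT 1, 367 without WT 2). Across genes the replicate numbers showed no pairing of the libraries: deviations of same-numbered libraries correlated at 0.0135 for tail length and 0.0155 for read number. This measure cannot see a shift shared by a whole library. Median tails over all reads split across the genotypes, at 97.3 nt in WT 1 and 98.1 nt in KO 2 against 105.6 nt in WT 2 and 105.8 nt in KO 1. A fit with the replicate block called 66 genes for read number, none of them a member, and 0 for tail length. Depth limits Setdb1 and Cbx5 most.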
